A study of Homo sapiens with 10 samples.

Results

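The 36 genes described here encode enzymes and regulators of cholesterol and fatty acid synthesis. They were chosen by gene symbol, and all 36 were found among the 60168 genes of the deposited transcript tables. All 36 passed the filter on low counts that left 15768 genes for testing. By role, 3 supply acetyl-CoA or acetoacetyl-CoA, 18 carry acetyl-CoA to cholesterol, 6 control the pathway or move sterols, and 9 build, desaturate or elongate fatty acids. The list does not cover every step of either pathway.

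The study sequenced poly(A) RNA of MCF10A cells, a non-transformed human mammary epithelial line, to compare the expression changes brought by activated YAP with those brought by TRAM2. Control cells carried an empty vector, MCF10A-TRAM2 cells a vector for overexpression of TRAM2, a protein of the translocon of the endoplasmic reticulum, and MCF10A-YAP5SA cells a vector for YAP5SA, a constitutively active form of the transcriptional co-activator YAP (the sample labels name it YAP only). All cells were transduced and selected with antibiotic, and all grew in medium with serum, EGF, insulin and hydrocortisone until 70-80% confluent. The paper's cloning methods name a plasmid backbone with blasticidin resistance for YAP5SA and one with puromycin resistance for TRAM2. These groups thus differed in backbone and resistance gene as well as insert, and the part of that was not tested. The backbone of the empty vector is not named there. They were selected populations in bulk culture, so fewer cells of a kind and less RNA per cell cannot be told apart.

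Control and MCF10A-TRAM2 had 4 libraries each, lettered A to D, and MCF10A-YAP5SA had 2, lettered A and B. Their depth was 8489854 to 16314438 estimated counts. By the genes with whole-number counts, control A and C differed by no more than sampling noise, as did control B and D. Each pair was counted as 1 sample (control 1 and control 2), which left 8 samples. The libraries carry a run number: A and B of each group came from the first run, C and D from the second, and MCF10A-YAP5SA was sequenced in the first run only. The series' design text names 3 biological replicates in each condition, which does not match the 4, 4 and 2 libraries here. Nothing in the sample labels ties the libraries to separate cultures, so p-values measure only the spread between these samples, which may be technical. YAP1, which the YAP5SA vector encodes, stood at 187 ± 0.096 CPM (counts scaled to a common library size; SD, n = 2) in control and 340 ± 3.54 CPM (SD, n = 2) in MCF10A-YAP5SA. TRAM2 stood at 28.6 ± 0.35 CPM (SD, n = 2) in control, 428 ± 150 CPM (SD, n = 4) in MCF10A-TRAM2 and 245 ± 3.56 CPM (SD, n = 2) in MCF10A-YAP5SA. The 10 basal mammary epithelial markers examined summed to 7196-7313 CPM in control, 6431-7561 CPM in MCF10A-TRAM2 and 4508-4518 CPM in MCF10A-YAP5SA. They did not move together: by the test below 6 were lower and 1 higher in MCF10A-YAP5SA than in control (70.0% called, against 29.4% of all genes). CDH1 went from 383 to 97.5 CPM, KRT17 from 267-279 to 442-465 CPM and TP63 from 2.48-3.11 to 0.084-0.155 CPM.

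Cholesterol is built from acetyl-CoA through mevalonate, the isoprenoid farnesyl diphosphate, squalene and lanosterol. Fatty acids are built from the same acetyl-CoA through malonyl-CoA, and are then elongated and desaturated in the endoplasmic reticulum. The transcription factors SREBP-1 and SREBP-2, made by SREBF1 and SREBF2, switch on these genes when the membranes hold little sterol: SCAP carries them to the Golgi for cleavage, and the INSIG proteins hold SCAP back when sterol is plentiful. SREBP-1 is known mainly for fatty acid genes and SREBP-2 mainly for cholesterol genes.

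SREBPs act at promoters together with NF-Y, which binds CCAAT, and Sp1, which binds GGGCGG. Windows from 250 bases before to 50 bases after a transcription start (RefSeq, GRCh38.p14) were therefore searched on both strands for 4 motifs. A single start was used per gene, so other starts of the same gene were not searched. Of the 36 genes, 32 had a window, and ACAT2, FDFT1, SQLE and FASN had none. CCAAT was in 21 of the 32 windows (65.6%) and in 36.8% of the 10350 windows of tested genes. GGGCGG was in 29 of the 32 (90.6%) against 69.8%, and the E-box CACGTG in 5 (15.6%) against 10.1%. TCACNCCAC, the letters of a classical sterol regulatory element, was in 1 of the 32 windows, that of SREBF2, and in 1.03% of windows of tested genes. A match in these letters is a description and not a binding site. Of the 6 genes with a window that were higher in MCF10A-YAP5SA by the test below, 5 held CCAAT, as did 16 of the 24 that were not called and neither of the 2 that were lower. The 250 bases before the start are given for those 5 genes, chosen because they rose and held CCAAT, and for SREBF2. CCAAT on either strand and TCACNCCAC are in capitals. FADS2, which also rose, had a window without CCAAT and is not shown. FADS3 lies at chr11:61891546-61891795 (minus strand), STARD4 at chr5:111512536-111512785 (minus), MVD at chr16:88663092-88663341 (minus), FDPS at chr1:155308616-155308865 (plus), MSMO1 at chr4:165327419-165327668 (plus) and SREBF2 at chr22:41832855-41833104 (plus).
FADS3: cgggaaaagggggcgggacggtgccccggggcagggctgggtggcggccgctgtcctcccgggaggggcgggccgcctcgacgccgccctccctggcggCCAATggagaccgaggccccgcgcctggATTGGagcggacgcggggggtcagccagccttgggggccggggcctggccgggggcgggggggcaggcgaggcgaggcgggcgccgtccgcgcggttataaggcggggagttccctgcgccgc
STARD4: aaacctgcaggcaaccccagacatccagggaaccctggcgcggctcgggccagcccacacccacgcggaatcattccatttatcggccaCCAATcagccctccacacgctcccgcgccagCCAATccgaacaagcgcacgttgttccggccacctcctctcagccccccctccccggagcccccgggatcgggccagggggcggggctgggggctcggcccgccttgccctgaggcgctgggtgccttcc
MVD: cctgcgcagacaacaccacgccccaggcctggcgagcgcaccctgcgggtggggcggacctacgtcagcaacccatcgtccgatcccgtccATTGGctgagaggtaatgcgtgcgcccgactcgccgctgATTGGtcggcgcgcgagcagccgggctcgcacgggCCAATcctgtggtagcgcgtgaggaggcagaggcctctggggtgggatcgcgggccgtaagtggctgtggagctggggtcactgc
FDPS: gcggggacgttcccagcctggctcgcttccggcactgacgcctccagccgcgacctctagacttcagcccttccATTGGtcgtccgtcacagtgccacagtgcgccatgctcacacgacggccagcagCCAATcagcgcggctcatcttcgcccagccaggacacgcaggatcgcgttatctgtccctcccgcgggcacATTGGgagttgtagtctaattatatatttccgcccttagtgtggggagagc
MSMO1: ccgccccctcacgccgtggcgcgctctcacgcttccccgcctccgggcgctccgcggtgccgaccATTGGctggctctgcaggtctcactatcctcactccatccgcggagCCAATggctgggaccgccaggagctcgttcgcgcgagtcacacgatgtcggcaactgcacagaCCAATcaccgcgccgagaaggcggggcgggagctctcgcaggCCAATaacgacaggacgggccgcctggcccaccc
SREBF2: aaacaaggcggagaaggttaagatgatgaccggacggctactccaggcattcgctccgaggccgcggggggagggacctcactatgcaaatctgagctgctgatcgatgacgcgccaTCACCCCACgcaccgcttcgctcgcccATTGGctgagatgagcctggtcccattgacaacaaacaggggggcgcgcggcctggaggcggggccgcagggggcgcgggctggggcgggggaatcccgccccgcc
MSMO1 held CCAAT 4 times, MVD and FDPS 3 times, STARD4 and FADS3 2 times and SREBF2 1 time. The SREBF2 window had its TCACNCCAC match 133 bases before the start.

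The first comparison asked which of these genes differed between cells with activated YAP and cells with the empty vector. In MCF10A-YAP5SA 7 of the 36 genes rose and 2 fell. The desaturase gene FADS3 rose by far the most, followed by the sterol carrier gene STARD4, and ACAT2, MSMO1, MVD and FDPS of the cholesterol pathway and the desaturase gene FADS2 rose by smaller amounts. SREBF1 and PMVK fell. A gene was called when its adjusted p in edgeR's quasi-likelihood test was under 0.05 and its absolute log2 fold change was over 0.5. By that rule 25.0% of the 36 genes were called, against a background of 29.4% of all 15768 genes tested (15.3% higher and 14.1% lower), so the share of called members was not above the background. The median log2 fold change of the 36 was 0.237 and that of all genes -0.009, and 27 of the 36 had a positive value. A further 16 members had an adjusted p under 0.05 with a change below the fold threshold. By adjusted p alone, 20 members were higher and 5 lower, and of all 15768 genes 3835 were higher and 3845 lower. The 2 MCF10A-YAP5SA samples lay outside the range of the 2 control samples for 32 of the 36, and this was so for 76.7% of all genes tested.

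**Figure D1:**
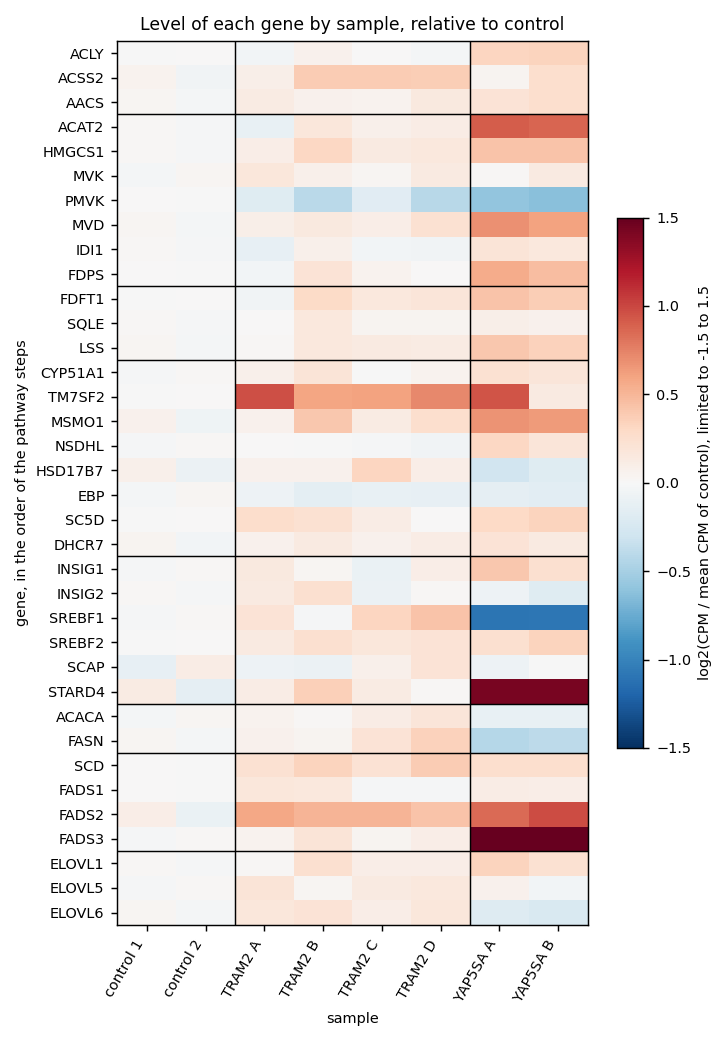
Level of each of the 36 genes (rows, in pathway order, with lines between the steps) in each of the 8 samples (columns), as log2 of CPM over the mean CPM of the 2 control samples, with colours limited to -1.5 to 1.5. FADS3 and STARD4 are dark red and SREBF1 dark blue in both MCF10A-YAP5SA samples, while the MCF10A-TRAM2 columns stay pale apart from TM7SF2, which has about 1 CPM, and FADS2.

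**Figure D2:**
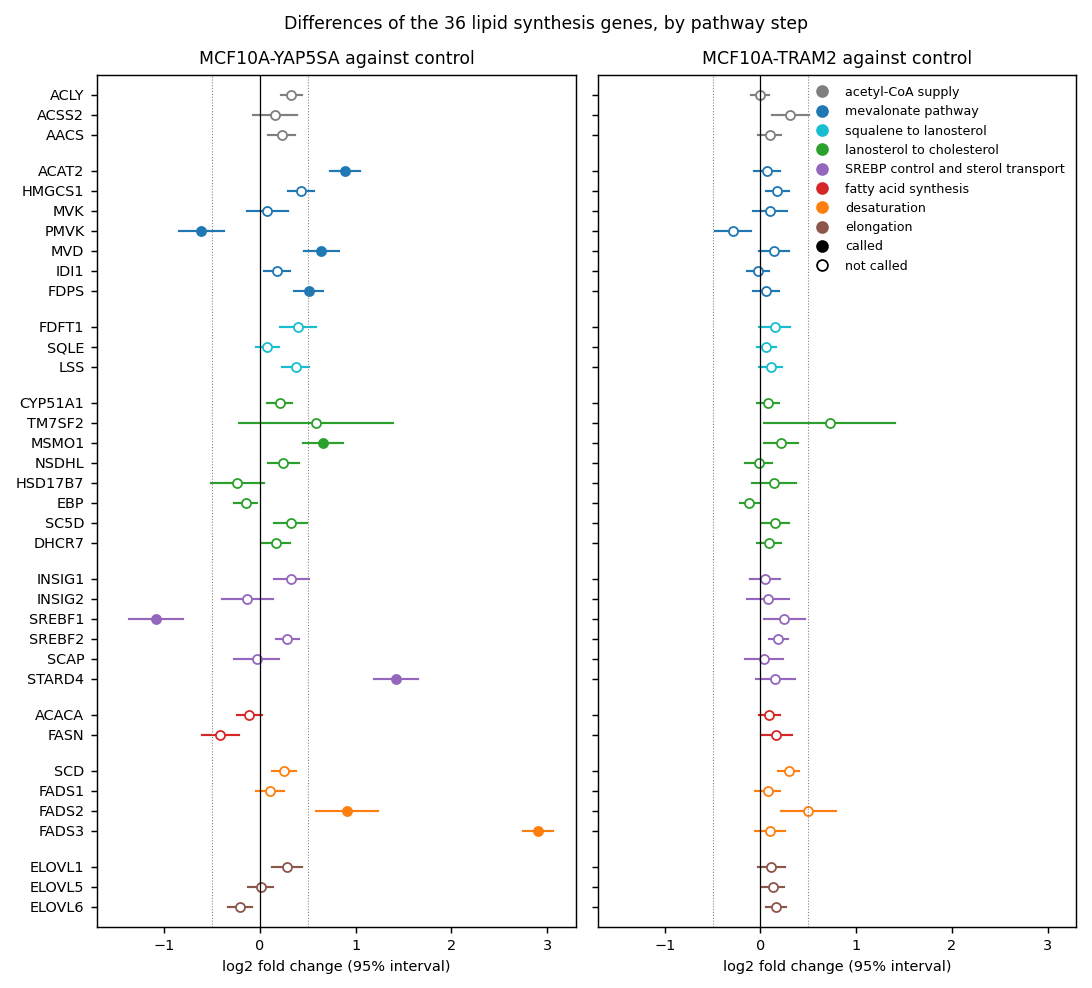
Log2 fold change of each gene (points) with its 95% interval (lines) in MCF10A-YAP5SA (left) and MCF10A-TRAM2 (right) against control, by pathway step (colours). Filled points are called and dotted lines mark the fold threshold of 0.5. The left panel has 9 filled points, from -1.09 for SREBF1 to 2.91 for FADS3, and the right panel has none.

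Of the 3 genes that supply acetyl units, none was called. ACLY, the citrate lyase that makes cytosolic acetyl-CoA, measured 267 ± 1.43 CPM (SD, n = 2) in control and 335 ± 2.89 CPM (SD, n = 2) in MCF10A-YAP5SA, a log2 fold change of 0.33 ± 0.050 (SE; edgeR adjusted p = 8.05e-05). AACS, which activates acetoacetate, had a log2 fold change of 0.23. ACSS2, which makes acetyl-CoA from acetate, had one of 0.15, with overlapping groups.

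Of the 7 genes of the mevalonate pathway, from acetyl-CoA to farnesyl diphosphate, 3 rose and 1 fell. ACAT2, the cytosolic thiolase that joins acetyl units, measured 92.7 and 90.8 CPM in control 1 and 2, 85.1, 104, 96.5 and 99.0 CPM in MCF10A-TRAM2 A to D, and 172 and 168 CPM in MCF10A-YAP5SA A and B. Both MCF10A-YAP5SA samples stood above every other sample, and the rise was 1.85-fold, or 0.89 ± 0.072 on the log2 scale (SE; edgeR adjusted p = 1.76e-07). Exons of TCP1 on the opposite strand cover 17.2% of the exon bases of ACAT2 in the GENCODE annotation on GRCh37, and whether the counting used strand is not stated. Other members had larger overlaps with another gene. On the same strand these were 68.2% for CYP51A1 and 36.4% for EBP, and on the opposite strand 37.7% for HMGCS1 and 18.6% for FDPS. TCP1, opposite ACAT2, held 44334.0 counts over all libraries, and RUSC1-AS1, opposite FDPS, held 51.0. The genes in the overlaps given for CYP51A1, EBP and HMGCS1 were not matched to counts.

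MVD, the decarboxylase that makes isopentenyl diphosphate, measured 20.2 and 19.4 CPM in control, 21.0, 21.9, 21.2 and 23.3 CPM in MCF10A-TRAM2 and 31.9 and 30.0 CPM in MCF10A-YAP5SA. FDPS, the farnesyl diphosphate synthase, measured 122.3 and 121.8 CPM in control, 118, 141, 126 and 123 CPM in MCF10A-TRAM2 and 179 and 168 CPM in MCF10A-YAP5SA. For both genes the MCF10A-YAP5SA samples did not overlap with the other 6. MVD rose by 0.64 ± 0.085 on the log2 scale (SE; edgeR adjusted p = 2.14e-05) and FDPS by 0.51 ± 0.071 (SE; edgeR adjusted p = 3.84e-05). With an offset for effective transcript length MVD was at 0.31 and FDPS at 0.46, and neither was called. The value of FDPS lies just inside the fold threshold, and without MCF10A-YAP5SA A it was 0.47 and not called.

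PMVK, the phosphomevalonate kinase that acts just before MVD, went the other way. It measured 20.96 and 20.90 CPM in control, 18.5, 15.8, 18.6 and 15.7 CPM in MCF10A-TRAM2 and 13.9 and 13.5 CPM in MCF10A-YAP5SA. The 3 groups did not overlap, with control highest and MCF10A-YAP5SA lowest. PMVK fell by 0.61 on the log2 scale in MCF10A-YAP5SA (SE 0.11; edgeR adjusted p = 3.6e-04). The remaining 3 genes of the step were not called. HMGCS1, the HMG-CoA synthase, had a log2 fold change of 0.43 ± 0.064 (SE; edgeR adjusted p = 6.39e-05), IDI1, the isopentenyl diphosphate isomerase, one of 0.18, and MVK, the mevalonate kinase, one of 0.08 with overlapping groups.

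None of the 3 genes from farnesyl diphosphate to lanosterol was called. FDFT1, the squalene synthase, measured 355 ± 1.83 CPM (SD, n = 2) in control and 469 ± 14.2 CPM (SD, n = 2) in MCF10A-YAP5SA, a log2 fold change of 0.40 ± 0.085 (SE; edgeR adjusted p = 2.24e-03). LSS, the lanosterol synthase, had a log2 fold change of 0.37 ± 0.064 (SE; edgeR adjusted p = 2.14e-04), but one of -0.04 with the effective length offset. SQLE, the squalene epoxidase that lies between them, had one of 0.08, with a 95% interval from -0.04 to 0.20.

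Of the 8 genes from lanosterol to cholesterol, 1 was called. MSMO1, the C4-methylsterol oxidase, measured 49.9 and 45.6 CPM in control, 49.8, 63.0, 51.9 and 56.9 CPM in MCF10A-TRAM2, and 76.3 and 74.6 CPM in MCF10A-YAP5SA. It rose by 0.66 ± 0.095 on the log2 scale (SE; edgeR adjusted p = 8.23e-05), with no overlap between MCF10A-YAP5SA and the other samples. Of the enzymes that work beside it, NSDHL, the sterol dehydrogenase of the same demethylation, had a log2 fold change of 0.24, and HSD17B7, the ketoreductase, one of -0.23 with an interval from -0.51 to 0.05. CYP51A1, the lanosterol demethylase, had one of 0.21, SC5D, a sterol desaturase, one of 0.32, and DHCR7, which completes cholesterol, one of 0.17. EBP, the sterol isomerase, had one of -0.15. TM7SF2, a sterol reductase, lay at 0.916-1.79 CPM in all samples, and its log2 fold change of 0.59 had an interval from -0.22 to 1.39. The effective length offset turned the sign of HSD17B7, to 0.36, and of TM7SF2, to -0.02, and neither was called. The pseudogene HSD17B7P2 held estimated counts equal to 11.4% of those of HSD17B7, whose value is uncertain for that reason.

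Of the 6 regulators and sterol carriers, STARD4 rose and SREBF1 fell. STARD4, which moves cholesterol between membranes, measured 24.8 and 20.6 CPM in control, 24.5, 29.1, 24.8 and 23.0 CPM in MCF10A-TRAM2 and 61.0 and 60.9 CPM in MCF10A-YAP5SA. The MCF10A-YAP5SA samples stood well above the rest, 2.68-fold over control (log2 fold change 1.42 ± 0.11, SE; edgeR adjusted p = 7.01e-08). SREBF1 measured 44.7 and 46.0 CPM in control, 52.2, 44.9, 56.8 and 60.9 CPM in MCF10A-TRAM2, and 21.3 and 21.4 CPM in MCF10A-YAP5SA. MCF10A-YAP5SA held 0.47 times the control level, with no overlap (log2 fold change -1.09 ± 0.13, SE; edgeR adjusted p = 2.49e-05). Exons of RAI1 on the opposite strand cover 6.75% of the exon bases of SREBF1, and RAI1 held 9005.9 counts over all libraries.

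SREBF2 went the other way from SREBF1, with 111 and 113 CPM in control, 123, 132, 126 and 129 CPM in MCF10A-TRAM2 and 132 and 141 CPM in MCF10A-YAP5SA. Its log2 fold change of 0.29 ± 0.055 (SE; edgeR adjusted p = 5.57e-04) was below the fold threshold. INSIG1, itself a classical SREBP target, measured 39.7 and 40.6 CPM in control, 44.6, 41.1, 37.4 and 42.9 CPM in MCF10A-TRAM2 and 53.2 and 47.6 CPM in MCF10A-YAP5SA. Its log2 fold change was 0.33 ± 0.085 (SE; edgeR adjusted p = 5.2e-03), again below the threshold, with the MCF10A-YAP5SA samples highest. SCAP measured 26.04 and 30.6 CPM in control, 26.6-32.6 CPM in MCF10A-TRAM2 and 26.9 and 28.3 CPM in MCF10A-YAP5SA, and its interval ran from -0.27 to 0.20 on the log2 scale. INSIG2 measured 12.95 and 12.66 CPM in control, 12.1-15.1 CPM in MCF10A-TRAM2, and 12.1 and 11.3 CPM in MCF10A-YAP5SA, with an interval from -0.40 to 0.14.

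Neither of the 2 genes of fatty acid synthesis proper was called, and both had negative values. FASN, the fatty acid synthase, measured 229 and 220.5 CPM in control, 235, 230.3, 259 and 284 CPM in MCF10A-TRAM2, and 167 and 171 CPM in MCF10A-YAP5SA. The 3 groups did not overlap, and the log2 fold change of -0.41 ± 0.088 (SE; edgeR adjusted p = 2.36e-03) was short of the fold threshold. With an offset for effective transcript length it was -1.47 and called. That offset gives weight to annotated transcripts of 100 bases: FASN-209 held a mean of 4.4 estimated counts but 33.0% of the TPM (counts over effective length, scaled to a common total) of FASN in control, and no counts in MCF10A-YAP5SA, while FASN-201, of 8464 bases, held 90.8% of the counts. ACACA, the acetyl-CoA carboxylase that makes malonyl-CoA, had a log2 fold change of -0.11 with an interval from -0.24 to 0.02.

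The 4 desaturase genes had the largest spread. FADS3, a member of the fatty acid desaturase cluster that acts on sphingoid bases, measured 14.5 and 14.8 CPM in control and 15.2, 16.7, 15.1 and 15.7 CPM in MCF10A-TRAM2, but 110.4 and 109 CPM in MCF10A-YAP5SA. Both MCF10A-YAP5SA samples stood far above all others, 7.5-fold over control (log2 fold change 2.91 ± 0.073, SE; edgeR adjusted p = 6.39e-13). Its neighbour FADS2, the delta-6 desaturase, was low, with 5.13 and 4.47 CPM in control, 7.15, 6.83, 6.84 and 6.44 CPM in MCF10A-TRAM2 and 8.66 and 9.45 CPM in MCF10A-YAP5SA. The 3 groups of FADS2 did not overlap, and it rose in MCF10A-YAP5SA by 0.91 ± 0.15 on the log2 scale (SE; edgeR adjusted p = 1.59e-04). With the effective length offset FADS2 was at 1.09 and not called. FADS1, the delta-5 desaturase of the same cluster, had a log2 fold change of 0.11 with an interval from -0.04 to 0.26. FADS1 and FADS2 share exon bases on opposite strands, 4.64% of those of FADS2, and FADS1 has the more counts. SCD, the stearoyl-CoA desaturase that makes oleate, had a log2 fold change of 0.25 ± 0.058 (SE; edgeR adjusted p = 2.11e-03).

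None of the 3 elongase genes was called. ELOVL6, which elongates palmitate, had a log2 fold change of -0.21 and ELOVL1, which makes very long chains, one of 0.28, both with groups apart. With the effective length offset ELOVL6 was at 0.008. ELOVL5, which elongates polyunsaturated chains, had a log2 fold change of 0.01 with an interval from -0.12 to 0.14.

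**Figure D3:**
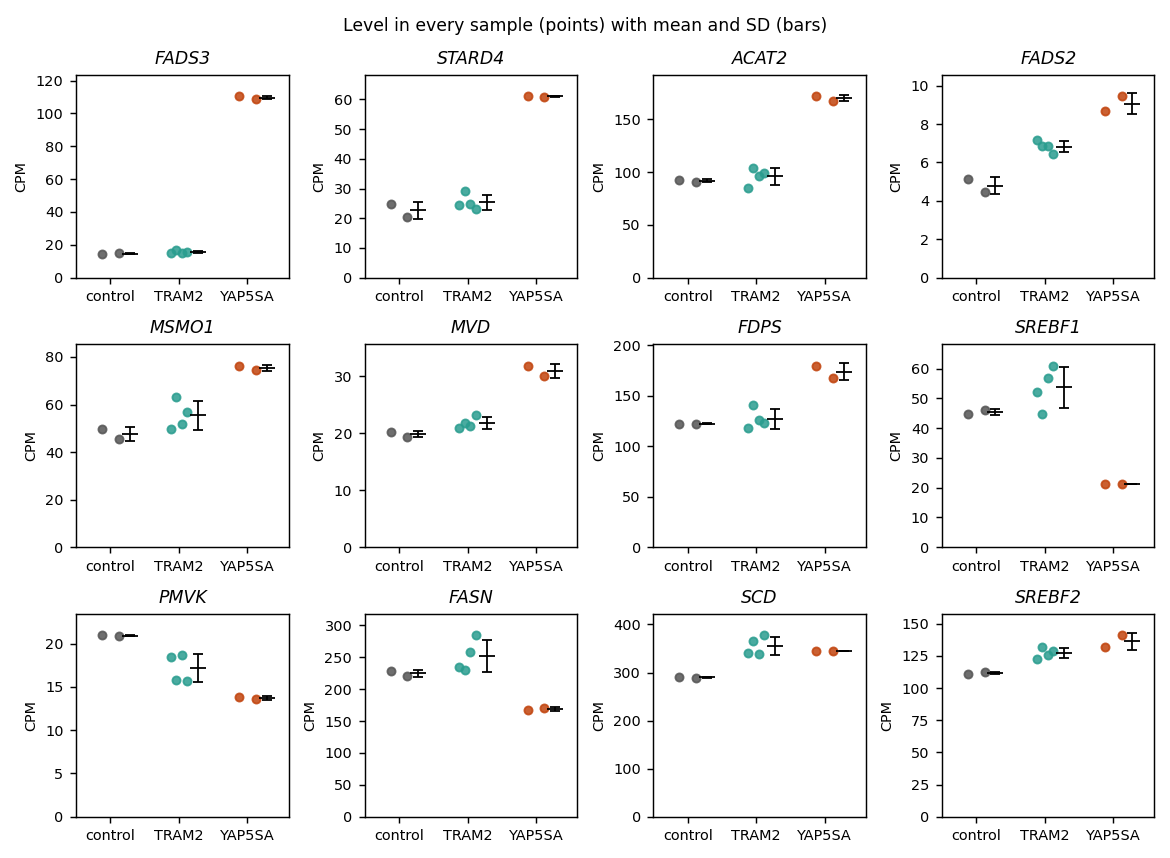
CPM of 12 of the genes in each sample (points) with the mean and SD of each group (horizontal mark and bar; control n = 2, TRAM2 n = 4, YAP5SA n = 2); each panel starts at 0. FADS3, STARD4 and ACAT2 are high in the 2 MCF10A-YAP5SA samples alone, SREBF1, PMVK and FASN are lowest there, and SCD is above control in all MCF10A-TRAM2 and MCF10A-YAP5SA samples.

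To compare levels between genes, CPM was divided by the length of the longest protein-coding transcript of the gene. On that scale (CPM per kb) FDFT1 was the most abundant of the 36 in control, at 133 ± 0.69 (SD, n = 2), followed by FDPS at 82.6 ± 0.28 and EBP at 71.5 ± 2.35. EBP and CYP51A1, at 67.3 ± 1.41, lay close together. TM7SF2 was the least abundant, at 0.53, and FADS2 came next, at 1.55 ± 0.15. FADS3 moved from rank 29 in control, at 8.16 ± 0.12 CPM per kb, to rank 7 in MCF10A-YAP5SA, at 61.3 ± 0.58 CPM per kb (SD, n = 2), close to SCD at 65.9 ± 0.031 CPM per kb. STARD4 moved from rank 33 to 25, SREBF1 from 27 to 33 and PMVK from 15 to 24.

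Summed by step, the 18 cholesterol genes held 608 ± 1.07 CPM per kb (SD, n = 2) in control and 750 ± 18.6 CPM per kb (SD, n = 2) in MCF10A-YAP5SA. The mevalonate step went from 203 ± 1.87 to 274 ± 7.5 CPM per kb and the lanosterol-to-cholesterol step from 209 ± 1.18 to 231 ± 4.68 CPM per kb. Desaturation went from 81.5 ± 0.14 to 148 ± 0.53 CPM per kb, most of the difference being FADS3, while fatty acid synthesis went from 40.1 ± 0.29 to 32.6 ± 0.33 CPM per kb. These sums follow the most abundant genes of each step, and no test was made on them.

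**Figure D4:**
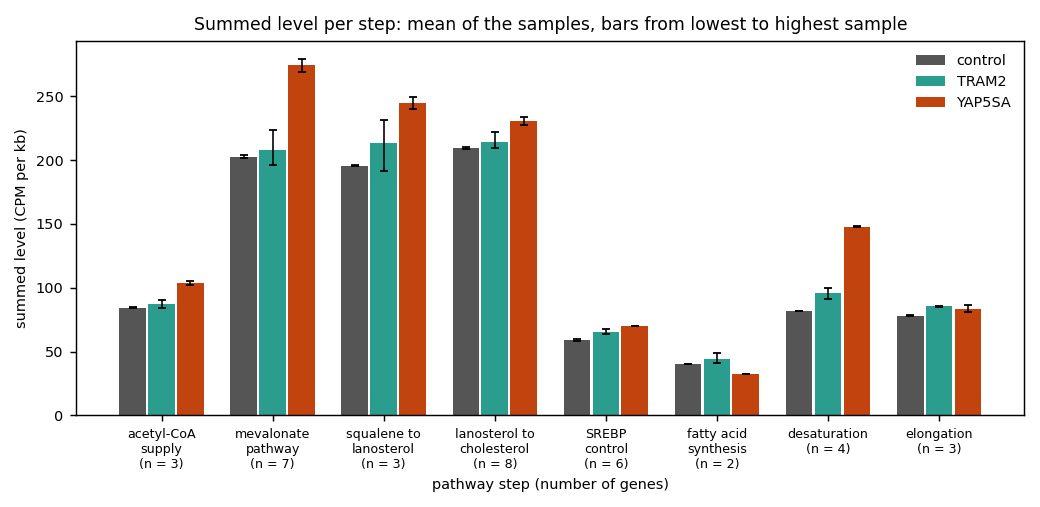
Summed level of the genes of each pathway step (CPM per kb of the longest protein-coding transcript, number of genes under each step) in control, TRAM2 and YAP5SA samples. Bars are means and lines run from the lowest to the highest sample. The YAP5SA bar is the lowest in fatty acid synthesis (32.6) and lies below TRAM2 in elongation (83.4 against 85.5). In all other steps it is the highest, among them the mevalonate step (274) and desaturation (148).

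Genes around the pathway were read from 7 further lists, whose counts stand against the same background of 29.4% of all genes called (15.3% higher and 14.1% lower). Of 13 genes of sterol sensing and lysosomal cholesterol export, 1 rose and none fell: LIPA, the lysosomal acid lipase that frees cholesterol from its esters, went from 26.6 ± 1.07 to 150.1 ± 5.03 CPM (SD, n = 2 each; log2 fold change 2.50, edgeR adjusted p = 6.91e-08). Of 9 tested genes of the LXR receptors, their targets and sterol efflux, 2 rose and 1 fell. SOAT1, which esterifies cholesterol, rose by 1.07 on the log2 scale, NCEH1, a cholesterol ester hydrolase, rose by 1.05, and NR1H3, the receptor LXR-alpha, fell by 1.68. The isoprenoid branch and prenylation list had no gene that rose and 5 of 13 that fell, among them RCE1, the protease of prenylated proteins (-0.90), RABGGTA, a subunit of the Rab prenyltransferase (-0.75), and COQ2 and PDSS1 of coenzyme Q synthesis (-0.70 and -0.54).

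Of 9 genes of NADPH supply, 1 rose and 2 fell, or 33.3% called against the background of 29.4%. SLC25A1, the mitochondrial citrate carrier, rose by 0.52 on the log2 scale and TKT, the transketolase, fell by 0.69. Of 12 other tested genes of fatty acid elongation and desaturation, 3 rose and 2 fell. SCD5, a relative of SCD, stood at 5.67 ± 0.40 CPM in control and at 55.3 ± 2.54 CPM in MCF10A-YAP5SA (SD, n = 2 each; log2 fold change 3.28, edgeR adjusted p = 1.35e-11). HACD1, a dehydratase of the elongation cycle, rose by 0.70, while TECR, the reductase of that cycle, and OXSM, of mitochondrial fatty acid synthesis, fell by 0.51 and 0.68. Of 19 tested genes of fatty acid activation and glycerolipid synthesis, 4 rose and 3 fell, with the acyl-CoA synthetase ACSL4 up by 1.02 and its relatives ACSL1 and ACSL5 down, at -1.20 and -1.31. AGPAT1, an acyltransferase of phosphatidic acid synthesis, rose by 0.51. Of 20 tested genes of fatty acid oxidation, 3 rose and 5 fell, or 40.0% called. PDK4, the kinase that inhibits pyruvate dehydrogenase, fell by 4.20 on the log2 scale, from 18.6 ± 0.25 to 1.02 ± 0.34 CPM (SD, n = 2 each), ACADVL, an acyl-CoA dehydrogenase, fell by 0.79, ETFB, an electron carrier for such dehydrogenases, fell by 0.71, and the receptor gene PPARA rose by 1.27. The median log2 fold change was 0.20 for the sterol sensing list, -0.17 for the LXR list, -0.25 for the isoprenoid list, -0.30 for the NADPH list, -0.001 for elongation and desaturation, -0.05 for activation and glycerolipid synthesis and -0.24 for oxidation, against -0.009 over all genes.

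Markers of other cell types were mostly at or near 0. The 8 adipocyte markers summed to 6.773-7.003 CPM in control, 8.19-9.93 CPM in MCF10A-TRAM2 and 5.38-6.50 CPM in MCF10A-YAP5SA. ADIPOQ was at 0.18 CPM at most and CIDEA at 0. LIPE held most of the sum in control and MCF10A-YAP5SA. PLIN4 stood at 0.92-0.97 CPM in control, 2.12-3.66 CPM in MCF10A-TRAM2 and 0 in MCF10A-YAP5SA. The 4 hepatocyte markers summed to 0.37 CPM at most, and ALB was at 0. The 8 fibroblast markers summed to 72.5-76.7 CPM in control and 93.1-97.8 CPM in MCF10A-YAP5SA, mostly FAP, with THY1 at 0. The 6 leukocyte markers summed to 40.3-40.6 CPM in control and 49.5-55.2 CPM in MCF10A-YAP5SA, mostly CD68, with CD3E and HLA-DRA at 0. The 5 endothelial markers summed to 9.70-10.6 CPM in control and 2.94 CPM in MCF10A-YAP5SA, with VWF at 0. The fall of the epithelial marker sum in MCF10A-YAP5SA, given above, moves with the results for the lipid genes, and its part in them was not tested.

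The second comparison asked whether TRAM2 alone moved these genes. In MCF10A-TRAM2 none of the 36 genes was called, in either direction, in edgeR or in DESeq2, and of all 15768 genes 9 were (0.0571%, with 0.0317% higher and 0.0254% lower). The TRAM2 gene itself was not among those 9, at a log2 fold change of 3.901 (edgeR adjusted p = 0.07246). The test thus left a large rise uncalled, so the lack of calls does not show a lack of change. The members' values were small and mostly positive: the median log2 fold change was 0.105, against -0.001 over all genes, 31 of the 36 were above 0, and 14 had an unadjusted p under 0.05, 12 of them higher, against 12.6% of all genes tested with such a p. The groups did not overlap for 16 of the 36, and for 22.7% of all genes tested. In the first-run libraries alone the median of the 36 was 0.128 and in the second-run libraries alone 0.125. Single members could differ between the runs: FASN was at 0.05 and 0.28 and INSIG2 at 0.26 and -0.10, while SCD was at 0.29 and 0.31. In the second run alone FASN, SCD, FDFT1, SREBF1 and ACSS2 had an edgeR adjusted p under 0.05, all below the fold threshold. In the first run alone the smallest edgeR adjusted p was that of SCD, at 0.0638. By both thresholds no member was called in either run, and of all genes tested 0.165% were in the first and 0.665% in the second. The second run rests on MCF10A-TRAM2 C and D, the pair of that group that differed least. The control libraries of the 2 runs are those that did not differ beyond sampling noise, so the runs are not independent of each other. Nor is this comparison independent of the first, since both use the same control samples.

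SCD was the only member with an adjusted p under 0.05 in the fit of all samples. It measured 290.2 and 289.6 CPM in control, 341, 365, 338 and 377 CPM in MCF10A-TRAM2, and 346 and 345 CPM in MCF10A-YAP5SA. All 4 MCF10A-TRAM2 samples stood above both control samples, by 0.29 ± 0.050 on the log2 scale (SE; edgeR adjusted p = 0.0333), below the fold threshold. SREBF2 had the next smallest p, with a log2 fold change of 0.19 ± 0.047 (SE; edgeR adjusted p = 0.122) and no overlap between the groups. FADS2 followed, with one of 0.50 ± 0.13 (SE; edgeR adjusted p = 0.139), also without overlap. FADS2 was called in edgeR with the 10 libraries as deposited, at 0.51, and with those and the replicate block, at 0.52.

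ACSS2 measured 27.3 and 25.5 CPM in control, 28.01, 34.4, 34.5 and 34.0 CPM in MCF10A-TRAM2, and 27.2 and 31.4 CPM in MCF10A-YAP5SA. The MCF10A-TRAM2 samples were all above control, sample A only just, at a log2 fold change of 0.31 ± 0.090 (SE; edgeR adjusted p = 0.169). PMVK, whose values are given above, was lower in all 4 MCF10A-TRAM2 samples than in control, at -0.29 ± 0.089 on the log2 scale (SE; edgeR adjusted p = 0.200). ELOVL6 measured 75.5 and 72.8 CPM in control, 83.4, 85.5, 79.1 and 83.2 CPM in MCF10A-TRAM2, and 65.1 and 63.5 CPM in MCF10A-YAP5SA, so that the 3 groups lay apart. Its log2 fold change in MCF10A-TRAM2 was 0.16 ± 0.049 (SE; edgeR adjusted p = 0.203), against -0.21 in MCF10A-YAP5SA. With the effective length offset these values were 0.268 and 0.008, so the fall in MCF10A-YAP5SA depended on the processing. SREBF1 and FASN, lower in MCF10A-YAP5SA, had values of 0.25 and 0.17 in MCF10A-TRAM2, with adjusted p of 0.332 and 0.391 in edgeR.

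The cholesterol genes summed to 636 ± 31.1 CPM per kb (SD, n = 4) in MCF10A-TRAM2, a range of 601 to 677 that spans the control values of 607 and 608. The summed desaturation genes stood at 96.1 ± 3.94 CPM per kb (SD, n = 4) and the elongases at 85.5 ± 0.47 CPM per kb (SD, n = 4), each above both control samples. In the 7 further lists no gene was called in MCF10A-TRAM2, in either direction.

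The direct comparison of MCF10A-YAP5SA with MCF10A-TRAM2 tests where the vectors differ. FADS3, STARD4, ACAT2 and MVD were higher in MCF10A-YAP5SA and SREBF1 and FASN were lower. These 6 calls are 16.7% of the 36 genes, against a background of 29.4% of all genes tested (14.9% higher and 14.6% lower), and the groups did not overlap for 23 of the 36 and for 61.9% of all genes. FADS3 stood 7.0-fold higher (log2 difference 2.81 ± 0.060, SE; edgeR adjusted p = 7.9e-14), STARD4 2.41-fold (1.27 ± 0.089, SE; edgeR adjusted p = 3.52e-08) and ACAT2 1.77-fold (0.82 ± 0.062, SE; edgeR adjusted p = 6.15e-08). SREBF1 differed by -1.34 ± 0.12 on the log2 scale (SE; edgeR adjusted p = 1.66e-06) and FASN by -0.58 ± 0.078 (SE; edgeR adjusted p = 7.91e-05). In the first-run libraries FASN differed by -0.46 and was not called, and MVD, at 0.50, lay at the fold threshold. ELOVL6 differed by -0.37 ± 0.052 (SE; edgeR adjusted p = 3.96e-05), short of the fold threshold. SCD, at -0.04, and SREBF2, at 0.10, had intervals that included 0, from -0.15 to 0.07 and from -0.004 to 0.20.

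Salmon also estimates how the reads of a gene split between its transcripts, and no test was made on these shares. The transcript with the most counts was the same in MCF10A-YAP5SA and control for 33 of the 36 genes, the others being HSD17B7, TM7SF2 and ACLY. HSD17B7-206 held 33.8 ± 6.2% of the counts of HSD17B7 in control and 47.3 ± 10.4% in MCF10A-YAP5SA (SD, n = 2 each), without overlap. HSD17B7-201 held 46.3 ± 10.8% and 23.4 ± 22.0%, with overlap. MVK-216 held 23.5 ± 6.5% of the counts of MVK in control and 37.1 ± 10.0% in MCF10A-YAP5SA, without overlap. The leading transcript of ACAT2, ACAT2-202, is annotated as a long noncoding RNA. It held 46.9 ± 1.7% of the counts of ACAT2 in control and 42.9 ± 1.5% in MCF10A-YAP5SA. The protein-coding ACAT2-201 held 36.6 ± 1.1% and 39.9 ± 2.1%. INSIG1-201, of 2908 bases, held 67.8 ± 1.4% of the counts of INSIG1 in control, 70.5 ± 8.6% in MCF10A-TRAM2 and 79.7 ± 1.5% in MCF10A-YAP5SA (SD, n = 2, 4 and 2). INSIG1-203 held 12.1 ± 4.2%, 7.4 ± 9.1% and 0.0%, so that the shares in MCF10A-TRAM2 varied as much as the groups differed. As for FASN, a short transcript carried much of the TPM of SREBF1: SREBF1-209, of 374 bases, held 32.4% of its TPM in control with 7.1% of its counts.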

How the data were processed

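Poly(A) RNA sequencing data of MCF10A control, MCF10A-TRAM2 and MCF10A-YAP5SA cells were analysed. The authors trimmed adapters with cutadapt and quantified transcripts with Salmon. Tool versions, annotation release, genome build and use of strand were not given in the sources used here. Library preparation used a TruSeq RNA kit per the labels and a stranded kit per the methods. The authors deposited each transcript's estimated count (not always whole), TPM and effective length, library by library, without pooling.

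From the deposited estimated counts, transcripts were summed by gene and rounded. A chi-square test compared libraries within a group, using genes that averaged 50 counts or more and had whole-number values (to within 0.001). Control A and C (chi-square over degrees of freedom 1.02) and control B and D (1.04; p = 0.0408, or 0.0816 after Holm adjustment over 13 pairs) did not differ and were summed. Other control pairs gave 1.14-1.21, MCF10A-TRAM2 pairs 1.89-6.28 and the MCF10A-YAP5SA pair 1.21. With all genes of that mean, merged pairs gave 1.22-1.23 and other control pairs 1.42-1.49. The merged samples held 21542413 and 18511936 counts.

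Genes were filtered with filterByExpr, scaled by TMM, and tested by edgeR's quasi-likelihood method (edgeR 4.0.16, robust glmQLFit, R 4.3.3). A single fit held the 8 samples, with group as its only term. P-values were adjusted by Benjamini and Hochberg over the 15768 genes. Each SE is the log2 fold change over the root of its F statistic, and intervals are at 95%. CPM used TMM-scaled totals. Alternatives were DESeq2 1.42.0, RLE normalization, only the 2 groups compared, no filter, no fold threshold, an effective length offset, the libraries as deposited, a replicate block, each run alone, and leaving out each sample. The fit was tested on simulated counts. Library letters did not pair the control and MCF10A-TRAM2 libraries: deviations of same-letter libraries from their group means correlated at 0.011 to 0.04 across genes. MCF10A-YAP5SA libraries were not part of this check.

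Levels between genes were to be set by summed TPM. Transcripts of 100 to 141 bases with few counts carried much of that sum for some genes, so CPM per kb of the longest protein-coding transcript was used. Promoters of called genes with TCACNCCAC were to be printed. None held it, and those shown were chosen after their motifs were seen. Exon overlaps came from GENCODE v44 on GRCh37, matched by gene ID.

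The members and lists were chosen with earlier results of these data known. The rule for named genes accounted for every member by step. It asked for values in every sample for up to 14 called members of at least 5 CPM, the 6 members with the smallest p in MCF10A-TRAM2 and the 5 SREBP regulators, and for up to 4 called genes of each further list, those with the smallest adjusted p. Of these, 1 gene of the NADPH list is not reported here. FASN was added to the first set after its values were seen.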

Additional observations from a re-analysis of the deposited data

Results flagged for a closer look

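In the group of 4 MCF10A-TRAM2 samples, each of the 36 genes was screened for a sample far from the others (Dixon's ratio, the gap to the nearest sample over the range, at the 95% level), and chance flags about 1 in 20 groups. There were 2 such genes. ACSS2 in MCF10A-TRAM2 A stood at 28.01 CPM, against 34.0-34.5 CPM in B to D, with a ratio of 0.923. Without that sample the log2 fold change of ACSS2 in MCF10A-TRAM2 against control was 0.38 instead of 0.31. HSD17B7 in MCF10A-TRAM2 C stood at 14.8 CPM, against 12.4-12.7 CPM in the other 3 samples, with a ratio of 0.892.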

How the results depend on the processing

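No member reversed its direction past the threshold in any alternative, though the effective length offset turned the sign of several that were not called, LSS among them. Without a threshold on the fold change, 20 members rose and 5 fell in MCF10A-YAP5SA against control (all genes 3835 and 3845), 15 and 6 in MCF10A-YAP5SA against MCF10A-TRAM2 (4154 and 3924), and 1 rose in MCF10A-TRAM2 against control, which was SCD (all genes 14 and 9). Without a filter on low counts the members' median in MCF10A-YAP5SA was 0.189. In the first run alone, 7 members rose and 2 fell in MCF10A-YAP5SA against control, 1 fell against MCF10A-TRAM2 and the median there was 0.071. With an effective length offset, HMGCS1 (0.61) and FASN (-1.47) were also called against control, and MVD (0.31), FDPS (0.46) and FADS2 (1.09) were not.

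In MCF10A-TRAM2 against control, the 10 libraries as deposited gave 1 member that rose, FADS2 at 0.51, and 55 and 12 genes of all tested. With the replicate block, 1 member (FADS2, 0.52), 55 and 14 genes were called, and the block changed no other member's call. The counts of all genes higher and lower were 14 and 5 in DESeq2, 17 and 8 in the first run, 61 and 36 in the second, and 89 and 47 without a filter, and the offset gave 1 lower. Why these counts moved was not tested.

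Leaving out each sample in turn gave 6-7 members that rose and 2 that fell against control in MCF10A-YAP5SA (medians 0.218 to 0.248), 0 and 0 in MCF10A-TRAM2 (medians 0.098 to 0.135; all genes 0-25 higher and 3-14 lower), and 3-5 and 2 in the direct comparison (medians 0.093 to 0.133). MVD in that comparison fell short of the fold threshold in several alternatives, with values down to 0.32. With 2 samples in a group, leaving out 1 leaves a lone sample that is assumed to vary like the others. Genes near 1 CPM, such as TM7SF2, were limited by depth.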
